A study of Mus musculus with 6 samples.

Results

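The 54 genes described here encode proteins that carry a cell through mitosis and cytokinesis. They were taken by name from a list of mitotic kinases, kinetochore proteins, spindle motors, condensin subunits and cytokinesis proteins, and were matched to the gene symbols of a count table of 54532 mouse genes. All 54 were found, and all 54 passed the filter on low counts that left 12269 genes for testing. They lie on 18 chromosomes, with 11 of them on chromosome 2. The members are described in 7 sets by role, from entry into mitosis to the separation of the daughter cells.

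BV2, the source of the RNA, is a mouse microglial line immortalised with a retrovirus that carries the oncogenes v-raf and v-myc, so its cells divide continuously in culture. One group of 3 libraries carries the genotype label SMEK1 knockdown and the other group of 3 the label WT. SMEK1 is a regulatory subunit of protein phosphatase 4 and is encoded by Ppp4r3a. The design text of the series names LV1 and NL as knockdown derivatives of BV2, while the libraries titled NL are the ones with the genotype label WT. Which of these holds for NL, and whether WT carried a control construct, was not given in the sources used here. All cells grew in DMEM with fetal bovine serum and penicillin-streptomycin, with no labelled stimulus, age or time point. Libraries are lettered A to C within each group. Separate cultures or separately derived lines are not stated for the libraries of a group. Their p-values therefore measure the spread among these 6 libraries alone, and effects of the knockdown and of other differences between the cultures cannot be told apart.

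A dividing cell enters mitosis when CDC25 phosphatases activate the kinase CDK1 bound to B-type cyclins, with help from the Aurora and Polo kinases. Condensin then compacts the chromosomes, kinetochores attach them to spindle microtubules, and the spindle checkpoint holds back the anaphase-promoting complex until every kinetochore is attached. The central spindle, organised by PRC1 and the centralspindlin proteins KIF23 and RACGAP1, then places the cleavage furrow. Transcripts of these genes accumulate late in the cell cycle. Their promoters are known for a cell cycle homology region (CHR) bound by the MuvB complexes and for CCAAT boxes bound by NF-Y. In dividing cells, protein phosphatase 4 is known from work on centrosomes and mitosis.

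Library totals ran from 18627425 to 21131557 counts in the knockdown and from 18036591 to 18708438 in WT, so that a single count was worth 0.0444 to 0.0597 counts-per-million (CPM, here scaled by TMM). Ppp4r3a stood at 2.51, 5.42 and 4.25 CPM in knockdown A, B and C and at 18.1, 13.5 and 15.3 CPM in WT A, B and C, without overlap (log2 fold change -1.94, SE 0.24, adjusted p in edgeR's quasi-likelihood test = 8.22e-05). Of 12 microglia and macrophage markers 10 were tested. Of these 7 were called, or 70%, beside 40.1% of all genes. The higher ones numbered 2, among them Trem2 (log2 fold change 0.36), or 1 without WT C. The lower ones numbered 5, among them Csf1r, or 3 without knockdown C. Log2 fold changes ran from -0.73 to 1.00, with a median of -0.29. The summed level of the 12 markers was 3423 to 3728 CPM in the knockdown and 3905 to 4288 CPM in WT. Cx3cr1 (0.460 and 0.224 CPM) and P2ry12 (0 and 0.0559 CPM), markers of microglia in the brain, were near 0 in both groups. Of 18 markers of other brain and blood cell types 11 had 0 counts in every library. Their summed level was 7.82 to 8.10 CPM in the knockdown and 2.88 to 3.18 CPM in WT, and Mbp was the 1 marker with enough counts to be tested, at 6.95 ± 0.103 CPM in the knockdown against 2.44 ± 0.134 CPM (SD, n = 3). The part of these markers in the results on mitotic genes was not tested.

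As a group the mitotic transcripts were more abundant in the knockdown libraries. Their summed level was 2237, 2531 and 2654 CPM in knockdown A, B and C, against 1779, 1892 and 1898 CPM in WT A, B and C. The means were 2474 ± 214 and 1857 ± 67.1 CPM (SD, n = 3), a ratio of 1.33, and every knockdown library lay above every WT library. As a share of all counts the members made up 0.230%, 0.277% and 0.278% of knockdown A, B and C against 0.176%, 0.172% and 0.179% of WT A, B and C. In bulk RNA, a larger fraction of cells in mitosis and more of each RNA per cell cannot be told apart.

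Of the 54 members, 24 passed an adjusted p of 0.05 in edgeR's quasi-likelihood test (Benjamini-Hochberg adjustment over all 12269 genes), a share of 44.4% beside 40.1% of all genes tested. By direction, 23 members were called higher, beside 20.5% of all genes, and 1 was called lower, beside 19.6% of all genes. The member called lower was Cdc25b, a phosphatase that activates CDK1. The groups did not overlap for 24 members, 23 higher and 1 lower in the knockdown, beside 50.9% of all genes without overlap. The median log2 fold change of members was 0.36, beside 0.01 over all genes tested. The 23 higher members rose by 1.26-fold to 2.62-fold, with a median log2 fold change of 0.59, and the rise of Prc1 was the 1 change of at least 2-fold.

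Of the 30 members that were not called, 19 had a positive and 11 a negative log2 fold change, between -0.61 and 0.87, and 4 had an unadjusted p under 0.05. They were less abundant than the higher members, with a median WT level of 5.83 CPM against 39.4 CPM, and less precisely measured, with a median SE of 0.29 against 0.11. Among the 24 called members, 19 kept their call whichever single library was left out. Without knockdown A 34 members were called, beside 38.6% of all genes in that fit, and without WT B 3 were called lower. With library totals in place of TMM 7 more members were called, all higher, beside 44.5% of all genes: Aurkb, Bub1b, Bub3, Ckap2l, Nek2, Pttg1 and Tacc3 (adjusted p 0.00752 to 0.0461). The plot of fold changes by role shows which sets moved together.

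**Figure D1:**
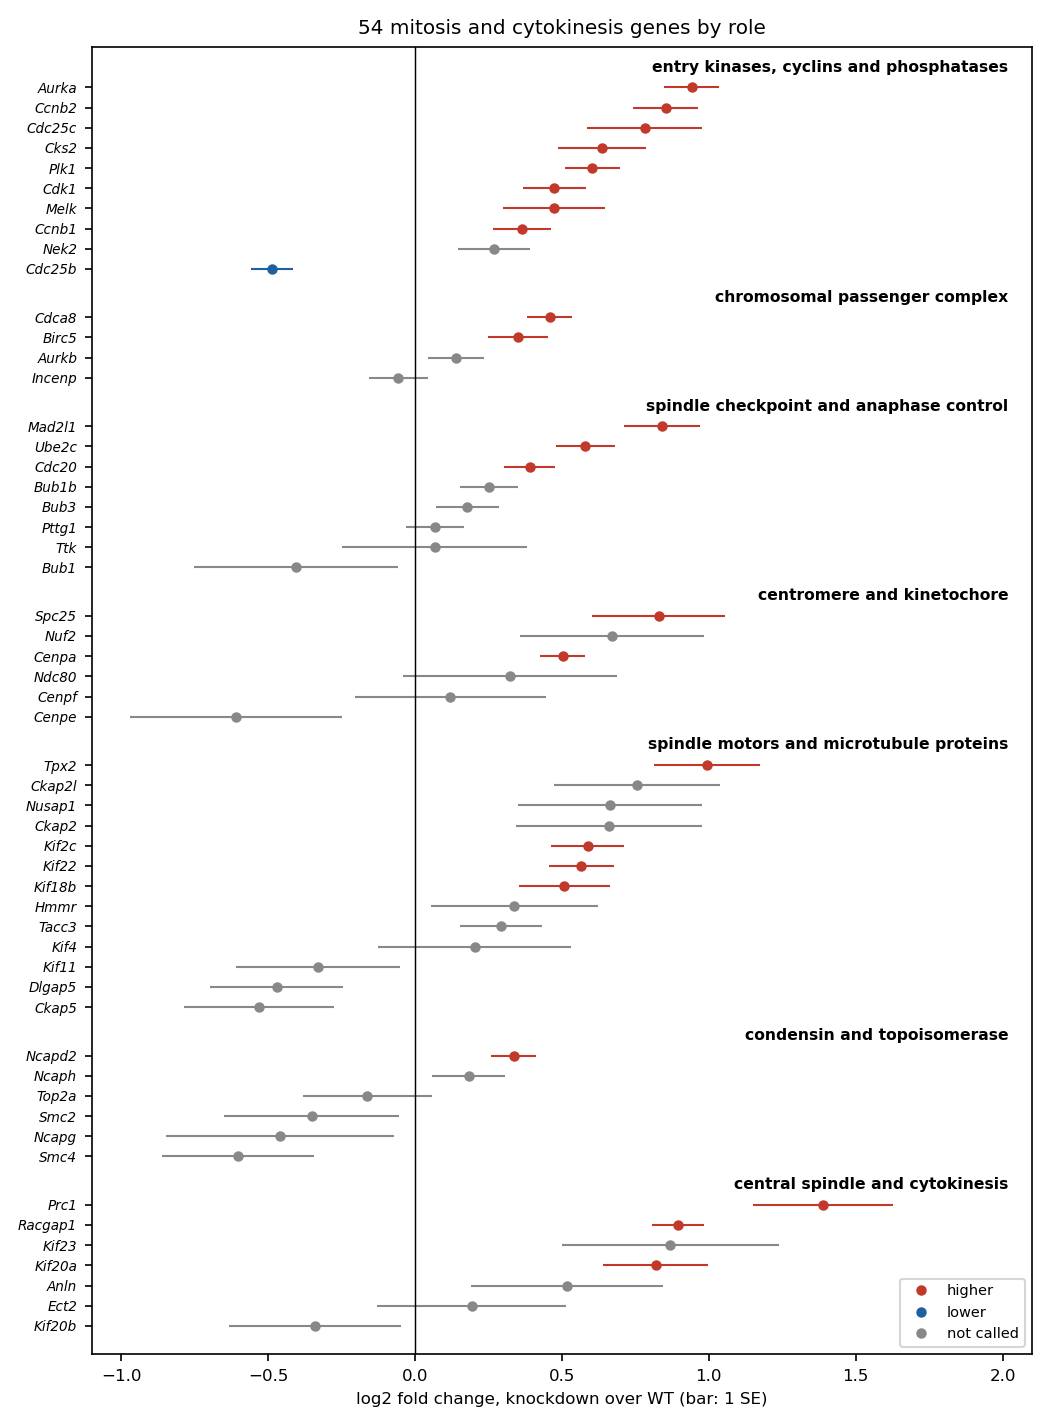
Log2 fold change of knockdown over WT for the 54 members (horizontal axis; bars are 1 SE), grouped by role and ordered by size within each role, with called members in colour. Of the 10 entry kinases, cyclins and phosphatases 8 are called higher and Cdc25b lower, while the condensin set has 1 call and a median of -0.26. Of all genes tested 20.5% are called higher and 19.6% lower.

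Promoters of the members were read from RefSeq (build GRCm38.p6), from 250 bases before to 50 bases after the start site, and 47 of the 54 members matched by symbol. The missing members were Aurkb, Cdc25c, Dlgap5, Incenp, Kif20a, Smc4 and Tpx2. A CHR element (TTTGAA or TTCGAA, searched on both strands) was found in 35 of 47 members, or 74.5% (95% Wilson interval 60.5% to 84.7%), beside 19.2% of all 32841 promoters of that length and 16.4% of the 8965 tested genes with a promoter. A CCAAT box (CCAAT, both strands) was also found in 35 members, beside 37.4% of all promoters and 43.1% of tested genes. Both motifs stood in 31 members (66%), beside 7.05% of tested genes. A match of letters is a description, not a binding site. Racgap1 and Aurka are shown as the called members with a CHR match and the smallest adjusted p, and Mad2l1 and Cks2 as those called without one. The sequences run 5′ to 3′ on the strand of the gene, with CHR and CCAAT matches on either strand in capitals (a match on the opposite strand reads ATTGG for the CCAAT box). Racgap1 lies at chr15:99651607-99651906 on the minus strand, Aurka at chr2:172370521-172370820 on the minus strand, Mad2l1 at chr6:66534971-66535270 on the plus strand and Cks2 at chr13:51644982-51645281 on the plus strand.
Racgap1: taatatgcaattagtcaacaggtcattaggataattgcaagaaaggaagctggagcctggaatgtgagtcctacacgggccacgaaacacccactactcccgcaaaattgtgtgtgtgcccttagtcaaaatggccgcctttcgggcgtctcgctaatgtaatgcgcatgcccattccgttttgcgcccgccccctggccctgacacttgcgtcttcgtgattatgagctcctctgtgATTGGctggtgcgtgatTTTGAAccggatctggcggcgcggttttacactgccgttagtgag
Aurka: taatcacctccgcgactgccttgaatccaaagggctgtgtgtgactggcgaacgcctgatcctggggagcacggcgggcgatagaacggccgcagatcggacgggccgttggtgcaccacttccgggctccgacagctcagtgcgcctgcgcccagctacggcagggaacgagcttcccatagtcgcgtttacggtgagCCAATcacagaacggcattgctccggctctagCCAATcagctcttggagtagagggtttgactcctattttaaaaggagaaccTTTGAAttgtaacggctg
Mad2l1: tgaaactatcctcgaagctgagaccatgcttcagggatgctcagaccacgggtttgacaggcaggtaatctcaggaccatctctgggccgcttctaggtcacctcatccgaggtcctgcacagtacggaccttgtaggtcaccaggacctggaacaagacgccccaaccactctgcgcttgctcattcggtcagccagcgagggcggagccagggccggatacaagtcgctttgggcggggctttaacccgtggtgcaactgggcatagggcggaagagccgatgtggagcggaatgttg
Cks2: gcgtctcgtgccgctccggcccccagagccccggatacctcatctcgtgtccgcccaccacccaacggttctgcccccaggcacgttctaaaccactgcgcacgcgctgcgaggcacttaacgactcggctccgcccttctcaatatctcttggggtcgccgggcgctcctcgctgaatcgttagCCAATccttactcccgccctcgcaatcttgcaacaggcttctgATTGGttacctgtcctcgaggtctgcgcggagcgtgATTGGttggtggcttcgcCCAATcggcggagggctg

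Racgap1 carries an opposite-strand CCAAT match whose first base is 12 bases before the start site and a TTTGAA 5 bases after it. In Aurka, CCAAT begins 51 and 19 bases before the start site and TTTGAA 32 bases after it. Cks2 has 4 CCAAT matches and no CHR match in this window. Mad2l1 has neither, and its RefSeq start lies 169 bases upstream of the gene start in the count table. Over all members there were 47 CHR matches, with a site in both of 2 overlapping promoter windows (Bub3, Ect2 and Prc1) counted once, from the nearer start site. They lay mostly near it: 35 had their first base within 50 bases of it, in 32 members. Members of every call held both motifs. A CHR match stood in 15 of 20 members called higher, in Cdc25b, the 1 called lower, and in 19 of 26 not called, and a CCAAT match in 16, 1 and 18 of them. The 8 members with neither motif were Birc5, Mad2l1 and Melk, which were called higher, and Ncaph, Nuf2, Nusap1, Pttg1 and Tacc3, which were not called.

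**Figure D2:**
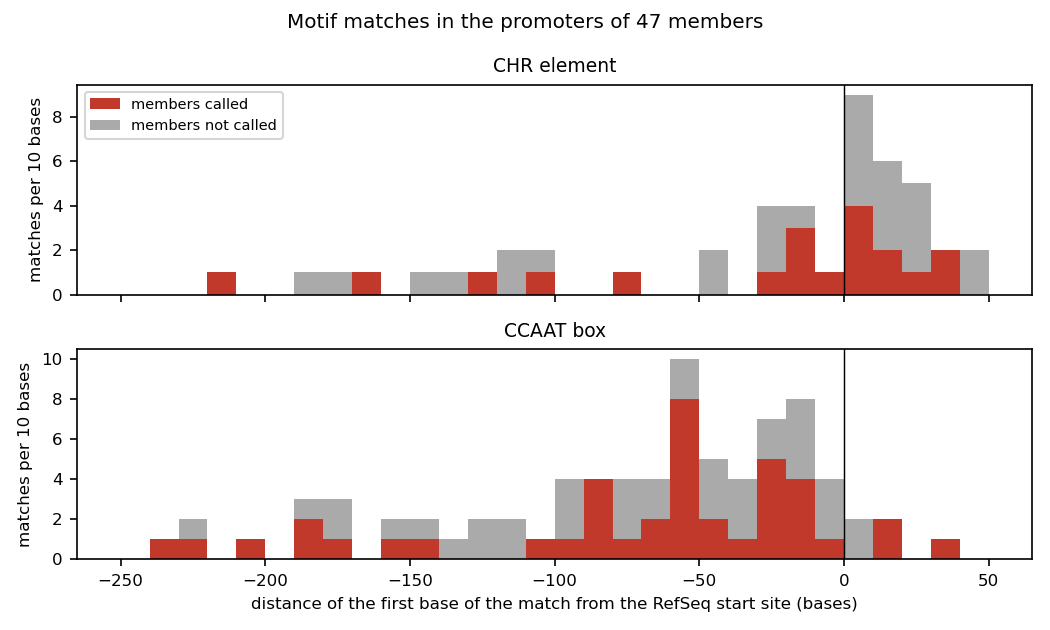
Number of CHR matches (upper panel) and CCAAT matches (lower panel) per 10 bases in the promoters of 47 members, by distance of the first base from the RefSeq start site, stacked by called and not called members. Of 47 CHR matches 35 lie within 50 bases of the start site, among members called and not called.

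The kinases, cyclins and phosphatases that start mitosis held 9 of the 24 calls, more than any other set, with 8 of 10 higher, 1 lower and a median log2 fold change of 0.54. That was 90% of the set, beside 40.1% of all genes tested. The shares called were 50% in the chromosomal passenger set, 42.9% in the central spindle set and 37.5% in the checkpoint set. They were 33.3% for kinetochores, 30.8% for spindle motors and 16.7% for condensin. Calls also went with level: 65.6% of members at 10 CPM or more were called, and 13.6% of those below it. The part of level in the shares of the sets was not tested. Aurka, the Aurora kinase that matures centrosomes and activates Polo kinase (ENSMUSG00000027496, chr2:172356190-172370535 on the minus strand, GRCm38), stood at 164, 172 and 200 CPM in knockdown A, B and C and at 85.7, 99.3 and 94.4 CPM in WT A, B and C. The groups lay far apart, and the log2 fold change of Aurka was 0.94 (SE 0.09), with an adjusted p of 1.57e-05. With the length of each gene in the table taken into account it was the most abundant transcript of this set in the knockdown, at 70.6 CPM per kb, against 36.8 in WT. Ccnb2, a B-type cyclin, stood at 66.0, 72.7 and 74.4 CPM in the knockdown and at 32.8, 43.0 and 42.3 CPM in WT, a rise of 0.85 (SE 0.11, adjusted p = 0.000104). Ccnb1, the B-type cyclin most tied to mitotic entry, moved less, from 63.2, 65.3 and 67.3 CPM in WT to 71.9, 86.7 and 93.2 CPM, a rise of 0.36 (SE 0.10, adjusted p = 0.0116; 0.0615 without knockdown C).

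Cdk1, the kinase that both cyclins activate, stood at 122, 117 and 139 CPM in the knockdown and at 76.7, 99.6 and 95.4 CPM in WT (log2 fold change 0.47, SE 0.11, adjusted p = 0.00407). Cks2, a small protein bound to cyclin-dependent kinases, rose by 0.64 (SE 0.15), with 35.0, 39.1 and 47.3 CPM against 20.6, 29.2 and 28.5 CPM. Both genes were thus higher in every knockdown library than in any WT library. Plk1, the Polo kinase of centrosomes and kinetochores, stood at 92.5, 95.8 and 104 CPM against 56.3, 67.1 and 69.2 CPM, a rise of 0.60 (SE 0.09, adjusted p = 0.000359). Melk, a kinase abundant in dividing cells, had 9.14, 10.4 and 10.98 CPM against 7.56, 8.36 and 6.12 CPM, and its rise of 0.47 (adjusted p = 0.046) lost its call without knockdown B (0.0727), knockdown C (0.155), WT A (0.0743) or WT C (0.194). Nek2, a centrosomal kinase, was not called (log2 fold change 0.27, adjusted p = 0.104; 0.0311 without knockdown A).

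The 2 CDC25 phosphatases among the members moved in opposite directions. Cdc25b, which is known to act at centrosomes early in mitotic entry, stood at 82.0, 78.5 and 81.7 CPM in knockdown A, B and C and at 110, 113 and 116 CPM in WT A, B and C. Its libraries varied little within each group, and it fell by 0.49 (log2; SE 0.07, adjusted p = 0.000269). It remained lower when libraries were scaled by their totals (-0.33, adjusted p = 0.00141). Cdc25c, whose product is a target of CDK1 itself in the feedback that drives mitosis, stood at 10.3, 11.7 and 11.97 CPM in the knockdown and at 4.80, 7.82 and 7.18 CPM in WT, a rise of 0.78 (SE 0.19, adjusted p = 0.00748).

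**Figure D3:**
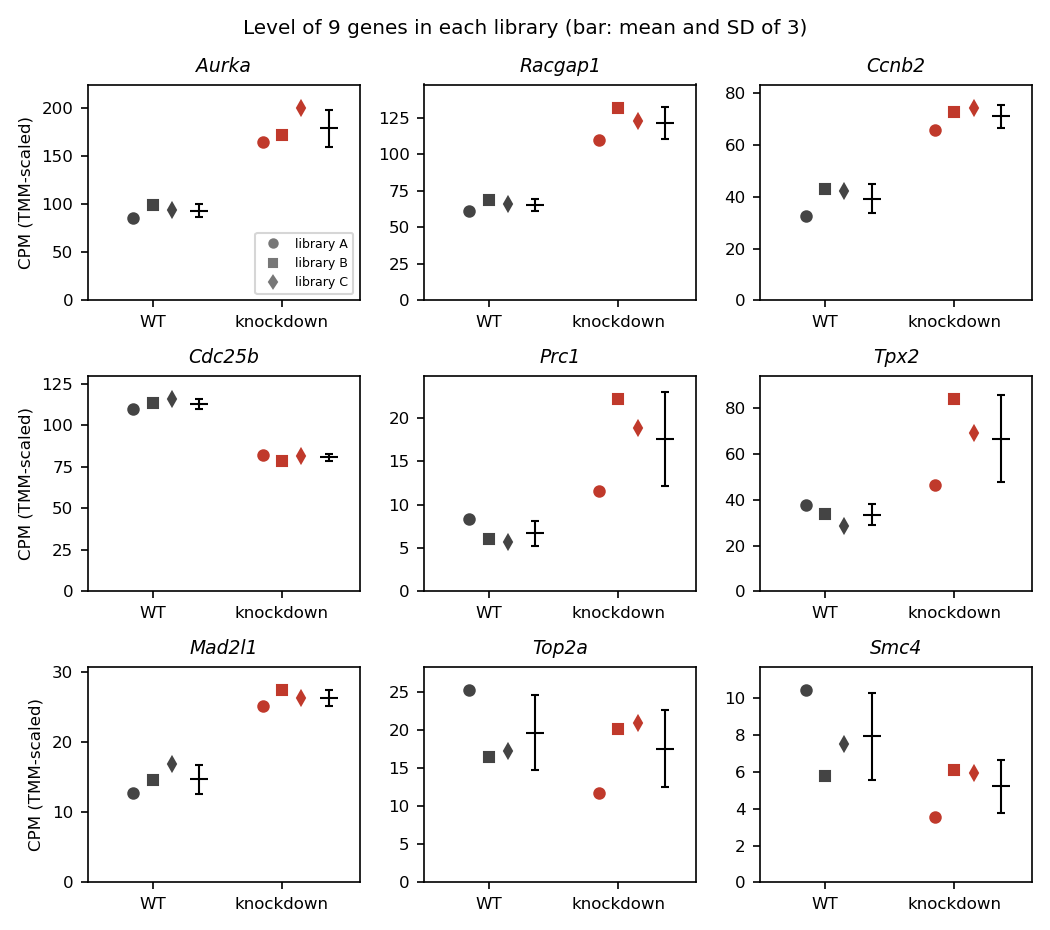
TMM-scaled CPM of 9 members in each library (points, with the shape giving the letter of the library) with the mean and SD of 3 libraries beside them; every vertical axis starts at 0. Aurka, Racgap1, Ccnb2, Prc1, Tpx2 and Mad2l1 are higher and Cdc25b lower in all knockdown libraries, while the groups overlap for Top2a and Smc4.

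The chromosomal passenger complex, which places Aurora B on centromeres and later on the central spindle, was called in 2 of its 4 members, and in 1 without knockdown C or without WT A. Cdca8, the borealin subunit, stood at 104, 110 and 115 CPM in the knockdown and at 76.4, 81.1 and 81.9 CPM in WT, a rise of 0.46 (SE 0.08, adjusted p = 0.000584). Birc5, the survivin subunit, had 80.0, 86.6 and 103 CPM against 64.3, 73.4 and 73.8 CPM, a rise of 0.35 (SE 0.10, adjusted p = 0.0173) that lost its call without knockdown C (0.0877) or WT A (0.0554). The kinase subunit and the scaffold were not called. Aurkb stood at 45.5, 47.2 and 53.3 CPM against 41.7, 46.6 and 44.3 CPM, with overlapping groups (log2 fold change 0.14, SE 0.09, adjusted p = 0.262), and was called higher with library totals (0.30, adjusted p = 0.0173). Incenp had a value of -0.06 (SE 0.10, adjusted p = 0.681), or 0.10 when libraries were scaled by their totals. The log2 fold changes of the Aurora kinase genes were thus 0.94 for Aurka and 0.14 for Aurkb with TMM, or 1.10 and 0.30 with library totals, and the difference between them was not tested.

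Among the 8 genes of the spindle checkpoint and of anaphase control, 3 were called higher, with a median of 0.21. With library totals in place of TMM 6 were called higher, beside 3890 of all 12269 genes. Mad2l1, whose product binds CDC20 at unattached kinetochores and so inhibits the anaphase-promoting complex, stood at 25.2, 27.5 and 26.2 CPM in the knockdown and at 12.7, 14.6 and 16.8 CPM in WT. It rose by 0.84 (SE 0.13, adjusted p = 0.000348). The other 2 calls were on the opposite side of that control, in an activator and an enzyme of the anaphase-promoting complex. Ube2c, its ubiquitin-conjugating enzyme, stood at 168, 163 and 190 CPM against 101, 128 and 119 CPM, a rise of 0.58 (SE 0.10, adjusted p = 0.000753). Cdc20, its activator, stood at 154, 175 and 188 CPM against 129, 129 and 137 CPM, a rise of 0.39 (SE 0.09, adjusted p = 0.00394), and was the most abundant member for its length, at 92.1 CPM per kb in the knockdown and 70.3 in WT. The checkpoint kinases and their partners were not called: the log2 fold change was 0.25 for Bub1b (adjusted p = 0.0609; 0.0044 without knockdown A), 0.18 for Bub3 (0.205), 0.07 for Ttk (0.882) and -0.40 for Bub1 (0.379). Pttg1, the securin that inhibits separase, had 0.07 (0.619).

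Of the 6 centromere and kinetochore members 2 were called higher, or 1 without WT C, with a median of 0.41. Cenpa, the histone variant that marks centromeres, stood at 131, 140 and 143 CPM in the knockdown and at 97.1, 102 and 93.5 CPM in WT, a rise of 0.50 (SE 0.08, adjusted p = 0.000298). Spc25, a subunit of the NDC80 complex that binds microtubules, had 8.57, 12.3 and 10.8 CPM against 8.04, 5.01 and 4.71 CPM, a rise of 0.83 (SE 0.23, adjusted p = 0.0122; 0.0629 without WT C). The groups came close for Spc25, with knockdown A just above WT A. Its partners in the complex overlapped between the groups, with a log2 fold change of 0.67 for Nuf2 (adjusted p = 0.109; 0.0282 on leaving out knockdown A and 0.0244 on leaving out WT A) and 0.32 for Ndc80 (0.508). The large corona proteins stood at low levels: Cenpf had 0.12 (0.793), and Cenpe, a motor that moves chromosomes to the spindle equator, had the lowest value of all members, -0.61 (SE 0.36, adjusted p = 0.200).

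The 13 spindle motors and microtubule proteins had a median of 0.51, with 4 called higher and 9 not called. Tpx2, which activates Aurora A on the spindle and nucleates microtubules, stood at 46.6, 84.3 and 69.3 CPM in knockdown A, B and C and at 37.8, 34.0 and 28.7 CPM in WT A, B and C, a rise of 0.99 (SE 0.18, adjusted p = 0.00107). Kif22, a chromosome-bound motor, had 44.7, 49.3 and 50.8 CPM against 28.4, 36.9 and 32.7 CPM, a rise of 0.57 (SE 0.11, adjusted p = 0.00175). Kif2c, which depolymerises microtubules at centromeres, had 27.6, 35.1 and 36.5 CPM against 20.6, 23.2 and 22.2 CPM, a rise of 0.59 (SE 0.12, adjusted p = 0.00292). In these 3 genes each knockdown library lay above each WT library. Kif18b, another depolymerase, had 19.6, 19.1 and 25.2 CPM against 15.3, 12.6 and 17.1 CPM and rose by 0.51 (adjusted p = 0.0209; 0.123 without knockdown C and 0.0806 without WT B).

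Without knockdown A, 8 genes of this set were called higher: besides the 4 above, Nusap1 (adjusted p = 0.00463), Ckap2 (0.0187), Ckap2l (0.00633) and Tacc3 (0.0145), which bind spindle microtubules. With all libraries their log2 fold changes were 0.66, 0.66, 0.76 and 0.29 and the groups overlapped. Ckap5, a microtubule polymerase, had -0.53 (adjusted p = 0.117) and was called lower without WT B (-0.78, adjusted p = 0.0144). Kif11, the motor that separates the spindle poles, had -0.33 (0.370), and Dlgap5, which stabilises spindle microtubules, had -0.47 (0.117). The gene of Dlgap5 is on chromosome 14, and beyond 40 Mb of it the median of 225 genes with a mean log2 CPM above 2 was -0.41.

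Condensin and topoisomerase genes had the lowest median of the 7 sets, -0.26. Of 6 members 1 was called higher, or 2 without knockdown A. Ncapd2, a regulatory condensin subunit, stood at 90.3, 93.2 and 93.1 CPM in the knockdown and at 68.7, 73.5 and 76.9 CPM in WT, a rise of 0.34 (SE 0.08, adjusted p = 0.00445) and the smallest of the 23. The ATPase subunits had negative values, with -0.60 for Smc4 (SE 0.26, adjusted p = 0.0847; called lower without WT B, -0.79, adjusted p = 0.0319) and -0.35 for Smc2 (0.369). Smc4 stood at 3.55, 6.13 and 5.96 CPM in the knockdown and at 10.5, 5.79 and 7.53 CPM in WT, so the groups overlapped at WT B. Of the other condensin subunits, Ncapg had -0.46 (0.372) and Ncaph had 0.18 (0.264; 0.0426 without knockdown A). Top2a, which untangles sister DNA, had 11.8, 20.1 and 20.9 CPM against 25.3, 16.4 and 17.3 CPM (log2 fold change -0.16, SE 0.22, adjusted p = 0.587): knockdown A was the lowest and WT A the highest library.

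The central spindle and cytokinesis set had the highest median, 0.82, with 3 of 7 members called higher, or 5 without knockdown A. Racgap1, the GTPase-activating subunit of centralspindlin (ENSMUSG00000023015, chr15:99620496-99651656 on the minus strand, GRCm38), stood at 110, 132 and 123 CPM in knockdown A, B and C and at 60.9, 68.7 and 66.3 CPM in WT A, B and C. It rose by 0.90 (SE 0.09) and had the smallest adjusted p of all members, 1.52e-05. Prc1, which bundles the antiparallel microtubules of the central spindle (ENSMUSG00000038943, chr7:80294450-80316259 on the plus strand), stood at 11.5, 22.2 and 18.9 CPM against 8.37, 6.03 and 5.71 CPM. With 2.62-fold it had the highest rise of all members (log2 fold change 1.39, SE 0.24, adjusted p = 0.000737), although knockdown A lay much closer to the WT libraries than knockdown B and C did. Kif20a, the motor that brings Polo kinase to the central spindle, had 25.8, 40.9 and 45.0 CPM against 21.2, 18.9 and 23.4 CPM, a rise of 0.82 (SE 0.18, adjusted p = 0.00356).

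Kif23, the motor subunit that forms centralspindlin with Racgap1, stood at 4.02, 11.2 and 8.85 CPM in the knockdown and at 6.37, 2.51 and 4.30 CPM in WT. Its log2 fold change of 0.87 was close to that of Racgap1, but its groups overlapped and it was not called (SE 0.37, adjusted p = 0.0806; 0.0163 on leaving out knockdown A and 0.0227 on leaving out WT A). Anln, an actin-binding scaffold of the furrow, had 0.52 (0.231; 0.0474 without knockdown A), Ect2, the exchange factor that activates RhoA there, 0.19 (0.662) and Kif20b, a motor of the midbody, -0.34 (0.378).

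The level of a member and the letter of its library moved with these calls. At a mean of 10 CPM or more over the 6 libraries, a split chosen after the data were seen, 20 of 32 members were called higher and 1 lower (65.6%, beside 45.6% of all genes at that level). Below it 3 of 22 were called, all higher (13.6%, beside 30.5% of all genes below 10 CPM): Cdc25c, Melk and Spc25. Among these 22 low members, knockdown A was the lowest library of its group in 22 and WT A the highest of its group in 19, beside 48.5% and 45.4% of all genes below 10 CPM. The median deviations from the group mean (log2) were -0.58, 0.42 and 0.13 for the knockdown libraries A, B and C, against 0.43, -0.36 and -0.04 in WT A, B and C. Over all 54 members knockdown A was the lowest of its group in 48. At 10 CPM or more it was the lowest in 81.2% of members, beside 30.8% of all genes at that level. WT A was the highest of its group in 18.8% of those members, beside 27.8% of all genes at that level. Without both libraries A, another choice made after the data were seen, 35 members were called, 34 higher and 1 lower, beside 41.2% of the 12423 genes tested in that fit; of these 12 higher were among the 22 low members, and the median of the low members was 0.67 in place of 0.26. The part of whatever set these libraries apart was not tested.

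**Figure D4:**
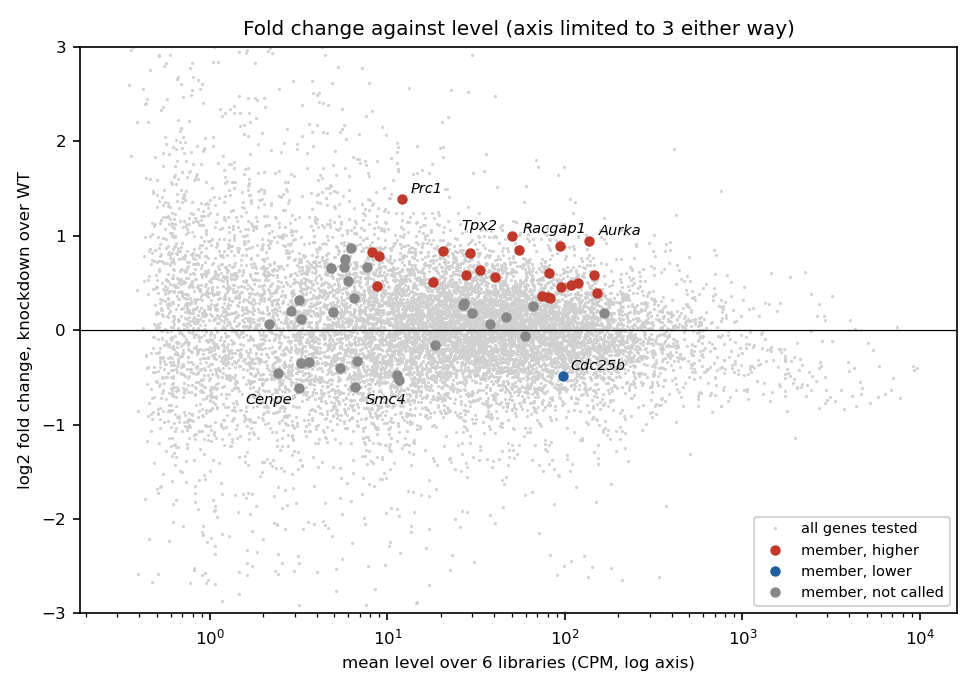
Log2 fold change of knockdown over WT against mean CPM over the 6 libraries (log axis) for all 12269 genes tested (grey dots; a few lie outside the axis) and the 54 members (larger points, coloured by call). Of the 32 members at 10 CPM or more 20 are higher and 1 lower, and of the 22 below it 3 are higher.

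Some members share sequence with other genes, and whether the counting used strand is unstated. Of the 50-base stretches of each gene in GENCODE transcripts, over 10% also occur in other genes for 9 members. The highest shares were 29.7% for Cks2 (with Gm15452), 25.2% for Kif20a (with the overlapping Cdc23) and 23.4% for Ccnb1 (with pseudogenes). These gene models can differ from those counted: Cdc25c has 4919 exon bases there and a deposited length of 1941. The counts of these members are therefore uncertain, to an extent that the shares do not measure. The log2 fold change of Cdc23 was 0.19 (adjusted p = 0.162) and that of Gm15452 0.35 (0.399), neither called, beside the rises of 0.82 for Kif20a and 0.64 for Cks2. Of other called members, Ube2c shared 16%, Cdc25c 11.9%, Cdc20 10.6% and Plk1 10.4%. Genes sharing stretches with Cdc25c include Gm3550, not called (-0.35, adjusted p = 0.690), and 2 called higher. These were Il7r (1.05, adjusted p = 0.0280) and Frmd4b (0.69, adjusted p = 0.0156), and their part in the rise of Cdc25c was not tested. Exons of Prc1 overlap Rccd1 over 11.1% of their bases, and Rccd1 had 0.12 (0.627). Tnnc2, which overlaps Ube2c over 22.8%, had 0 counts in every library. Pdzd11, which overlaps Kif4 over 15.1%, rose by 0.97 (adjusted p = 0.000128), while Kif4 itself was not called (0.20, adjusted p = 0.652).

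Other proteins of the same steps were counted from lists of genes that are no members. Of all genes tested 40.1% were called, 20.5% higher and 19.6% lower. The share called was 47.1% in the other kinetochore list, 41.2% in the anaphase-promoting complex and 37.5% in the cohesin list. It was 38.1% in the list on CDK1 and mitotic exit and 31.4% in the spindle and centrosome list. The cytokinesis list had 28.6% and the MuvB list 22.7%. The kinetochore list had the highest of these shares, and the anaphase-promoting complex, with 7 of 17 called, was near the share of all genes. In the other fits the calls over all genes moved too. With library totals 3890 of 12269 genes were higher and 1568 lower, and without single libraries 29.5% to 39.1% were called. Of 34 other kinetochore and checkpoint genes 14 were higher and 2 lower, with a median of 0.42, close to the 0.36 of the members; the higher genes numbered 8 without knockdown C and 9 without WT C. Cenpn, a reader of the centromeric histone, rose by 1.05 (SE 0.13, adjusted p = 9.37e-05), and Pmf1, a subunit of the MIS12 complex, by 0.69 (SE 0.08, adjusted p = 3.81e-05). Zwint, which links the outer kinetochore to the checkpoint complex RZZ, fell by 1.47 on the log2 scale, from 35.3 ± 2.46 to 12.7 ± 0.868 CPM (SD, n = 3; SE 0.11, adjusted p = 2.2e-06). Cenpc1, which anchors the kinetochore on the centromere, fell by 0.88 (adjusted p = 0.0354; not called without knockdown A, knockdown C, WT A or WT C, at 0.0773 to 0.108).

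The other lists of mitotic genes were near the median of all genes or below it. Of 35 other spindle and centrosome genes 8 were higher and 3 lower (median 0.08; 0 lower without WT C, 1 without knockdown A, WT A or WT B). Fam83d, which directs a spindle kinase, rose by 1.70 (SE 0.15, adjusted p = 5.7e-06) and the augmin subunit Haus7 by 0.95 (adjusted p = 0.000283). The augmin subunit Haus3 fell by 1.08 on the log2 scale (adjusted p = 0.0139; 0.0551 without knockdown C and 0.0582 without WT C), and Kpna2, a nuclear import factor that also binds TPX2, fell by 0.27 (adjusted p = 0.0406), a call lost whichever library was left out except knockdown C. In the anaphase-promoting complex 4 of 17 genes were higher and 3 lower (median 0.13). With library totals 8 were higher, but that scaling also raised the higher calls over all genes from 2515 to 3890 of 12269. Anapc16 rose by 0.69 and Anapc7 by 0.48, while Anapc5 fell by 1.06 on the log2 scale, from 235 ± 17.7 to 113 ± 5.79 CPM (SD, n = 3; adjusted p = 2.44e-06), and Cdc16 fell by 0.73.

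Cohesin, separase and shugoshin genes, which hold and release sister chromatids, had a median of -0.49, with 1 of 16 higher, or 2 without knockdown A, and 5 lower. The lower count moved with the libraries, from 1 without knockdown A or WT A and 2 without knockdown C to 8 without WT B and 9 without knockdown B, and was 1 with library totals. Espl1, the separase, rose by 0.53 (SE 0.07, adjusted p = 0.00014), with 133 ± 2.86 against 91.5 ± 2.81 CPM (SD, n = 3). Pds5a, a cohesin regulator, fell by 0.92 (adjusted p = 0.00451), and Nipbl, the cohesin loader, by 0.82 (adjusted p = 0.0235; 0.0884 on leaving out knockdown A and 0.108 on leaving out WT A). Of 3 condensin II genes 0 were called by edgeR, DESeq2 or limma-voom, and 0 had an unadjusted p under 0.05 in edgeR.

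A list on CDK1 and mitotic exit held opponents of CDK1 and also genes that promote mitotic entry, such as Ccna2, Cdc25a and Bora. Of its 21 genes 5 were higher and 3 lower (median -0.06). Ccna2, the cyclin of S phase and early mitosis, went from 37.3 ± 0.923 to 64.0 ± 8.45 CPM (SD, n = 3), a rise of 0.78 (SE 0.11, adjusted p = 0.000135), and Ccnf, an F-box cyclin, rose by 0.60. Bora, the cofactor through which Aurora A activates Polo kinase, fell by 1.18 (log2; SE 0.18, adjusted p = 0.000283) and also lies on chromosome 14. Ppp2cb, a catalytic subunit of protein phosphatase 2A, fell by 0.45. Of 21 tested genes of a list of other cytokinesis and abscission proteins 4 were higher, or 1 without knockdown C and 2 without WT C, and 2 lower (median -0.04). Plk2, a Polo-like kinase, rose by 0.98 (adjusted p = 6.61e-05), and Cit, a kinase of the midbody, by 0.64 (adjusted p = 0.0246; 0.113 without knockdown C and 0.0879 without WT B). Spast, which cuts microtubules at abscission, fell by 0.68 on the log2 scale (adjusted p = 0.00179), and Myh9, the non-muscle myosin chain, fell by 0.23 (adjusted p = 0.0374), a call kept only without WT B and lost on leaving out any other library (0.054 to 0.171).

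The known regulators of these promoters were mostly not called. Of 22 tested genes of the MuvB, DREAM and FOXM1 list 3 were higher and 2 lower (median 0.02), beside 20.5% and 19.6% of all genes. The higher ones numbered 1 without knockdown C or WT B, beside 1921 of 12463 and 2248 of 12534 genes. With library totals they numbered 8, beside 3890 of 12269 genes. Lin52, a MuvB subunit, rose by 0.87 (adjusted p = 0.000853) and Nfyb, an NF-Y subunit, by 0.59 (adjusted p = 0.0204; 0.0913 without knockdown C and 0.0731 without WT B). E2f2, an activator of the same family as the repressor E2f8, fell by 0.53 and E2f8 fell by 0.59 on the log2 scale.

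Earlier phases of the cell cycle were measured beside the mitotic genes. Of 42 DNA replication genes 6 were higher and 13 lower with a median of -0.07, or 45.2% called beside 40.1% of all genes. With library totals, however, 14 were higher and 6 lower. Without knockdown B 10 were higher, and without WT C 7 were lower. Gins4 rose by 0.68 and Gins1 by 0.73, while Rpa2 fell by 0.87 and Mcm5 fell by 0.60 on the log2 scale. Among 15 tested G1 cyclins, kinases and inhibitors 3 were higher and 8 lower, or 73.3% called, and with library totals 5 were higher and 3 lower. Without knockdown C or WT C 1 was higher and 5 lower, and without WT A 1 was higher. Cdkn2a, which encodes the inhibitors p16 and p19ARF, went from 282 ± 15.5 to 135 ± 6.81 CPM (SD, n = 3) and fell by 1.07 (adjusted p = 1.62e-06), and Ccnd2, a D-type cyclin, fell by 0.88 on the log2 scale (adjusted p = 3.37e-05). Cdkn3, a phosphatase that acts on cyclin-dependent kinases, rose by 0.96 (adjusted p = 0.000325). Cdkn1a, the inhibitor p21, rose by 0.24 (adjusted p = 0.0406) and lost its call whichever library was left out except knockdown B. Among the 54 mitotic members, by contrast in count alone, 30 were higher and 1 lower with library totals. That scaling moved all genes upward, with 3890 of 12269 called higher, 1568 called lower and a median of 0.17. Whether the lists differ was not tested.

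**Figure D5:**
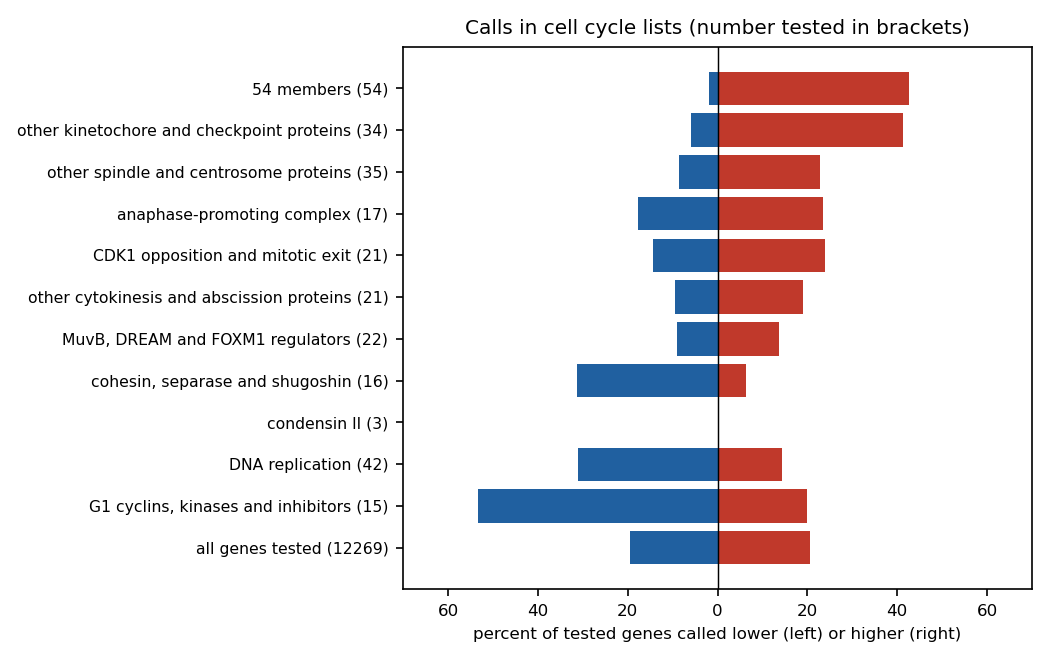
Percent of tested genes called lower (bars to the left) and higher (bars to the right) in the 54 members, in 10 other cell cycle lists and in all genes tested, with the number tested in brackets. The members have 23 higher and 1 lower gene of 54 and the other kinetochore list 14 and 2 of 34, while the DNA replication list has 6 and 13 of 42. Of all genes tested 20.5% are higher and 19.6% lower.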

How the data were processed

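Whole-number counts per gene were deposited by the authors for 6 libraries. FPKM values were deposited by the authors too and served for alternatives only. Gene length and the group means of FPKM came with the deposited tables. Per the labels' protocols, RNA was taken with a column kit and a SMARTER mRNA kit made the libraries. GRCm38 (mm10) was the build, per the submitters' processing notes. Aligner, counter, annotation and strand setting: not given in the sources used here.

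Counts were filtered with filterByExpr, scaled by TMM and tested with glmQLFit and glmQLFTest of edgeR 4.0.16 in R 4.3.3 without covariates. Where no tool is named, an adjusted p, also one in brackets, is that of edgeR's quasi-likelihood test after Benjamini-Hochberg correction across the 12269 genes, with calls at an adjusted p of 0.05. Changes are given as log2 (knockdown over WT), also after "rose by" and "fell by". An SE was obtained by dividing the absolute log2 change by the root of F. Groups overlap where the ranges of their libraries' CPM overlap. CPM per kb uses the gene length in the deposited table. Library totals were 18036591 to 21131557 counts, and the biological coefficient of variation was 0.121.

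The members and all lists were chosen with earlier results of these data known. Of the marker list 1 item is not reported here. Each role names its called members, those with the 3 smallest adjusted p and the largest rise and fall, and each other list its 2 called genes with the smallest adjusted p in each direction. Other members are named to account for all 54 and were chosen after their values were seen. On data simulated for the knockdown against WT comparison (12105 genes), edgeR recovered 52.2% of 67 genes changed 1.5-fold, 77.6% of 67 changed 2-fold and 98.5% of 66 changed 4-fold, and 8 of 160 calls were false. The simulation changed far fewer genes than the 4918 called in the data. It also drew libraries independently, so these rates cannot be carried over to the data. The alternatives used other scalings, filters, DESeq2 1.42.0, limma 3.58.1 (voom, and log2 of FPKM plus 1 or 0.1), a replicate block, an adjusted p of 0.01, each library left out in turn and, added after the data were seen, both libraries A left out.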

Additional observations from a re-analysis of the deposited data

How the results depend on the processing

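The number of members called was 24, and 16 to 35 over the alternatives: 16 with limma on log2(FPKM + 1) and no filter (beside 18.3% of all genes in that fit), 19 at an adjusted p of 0.01 (25.9%), 20 to 34 on leaving out single libraries (29.5% to 39.1%), 25 with DESeq2 (38.5%), 31 with library totals (44.5%), 34 at 1 count in any library (25.3%) and 35 without both libraries A (41.2%). The members called higher numbered 15 with limma on log2(FPKM + 1) and no filter. The members called lower numbered 3 at 1 count in any library, and 1 to 3 on leaving out single libraries. The median log2 fold change of members was 0.30 to 0.53 over all of these, always positive. No called member changed sign. Of the 24 called members 16 kept their call in every setting, and 18 of the 30 others were called in at least 1. The settings include the fit without both libraries A, chosen after the data were seen. Ndc80, Hmmr and Ect2 were called in that fit alone. With library totals the median of all genes went from 0.01 to 0.17 and higher genes made up 71.3% of calls in place of 51.1%. Whether the letters A to C pair the libraries is not stated. Libraries of the same letter had correlations of -0.36 to 0.00247 in their deviations from the group means. With 3 libraries per group, these values cannot show whether cultures were paired. With the letter as a replicate block 23 members were called, with Melk lost (adjusted p = 0.125), and 3326 genes in place of 4918. The CHR share of promoters was 74.5% in the whole window and 68.1% from 100 bases before the start site. Members that were not called had a median SE of 0.29 and a median WT level of 5.83 CPM, and the part of depth in this was not tested.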
